A study of Mus musculus with 6 samples.

Results

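Sox proteins are transcription factors that bind the minor groove of DNA through a high-mobility-group (HMG) box, and 10 of their genes, Sox1, Sox2, Sox3, Sox4, Sox5, Sox6, Sox8, Sox9, Sox11 and Sox13, were followed here in motor neurons of the embryonic mouse spinal cord. They form a named list from groups B, C, D and E of the family that was drawn up with earlier results of these data known. The list leaves out Sox10, Sox12 and Sox21 of the same groups, which are given further on. It also leaves out Sox14, which had no row with its symbol alone. Counts over the list are therefore descriptions of these genes and not of an unselected set. Each had exactly 1 row with its symbol alone in the platform's probe table, so the 10 genes stand as 10 of 14860 genes with such a row. Where a gene has several rows, the row was to be chosen by its mean over the arrays, the only measured value in the rule, and here this step decided nothing.

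The 6 samples were 3 of medial and 3 of lateral motor neurons from the lumbar cord at embryonic day 12, and all embryos carried HB9::GFP (line mHB9-Gfp1b), in which the promoter of the motor neuron gene Mnx1, also called Hb9, drives green fluorescent protein. Columns of the cord were dissected, dissociated and sorted for the fluorescent cells, and the labels do not say how many embryos a sample pooled or whether replicates were separate litters. Medial column neurons supply muscles along the spine and lateral column neurons supply the limb. Total RNA was labelled with biotin and hybridised to 1 array per sample. The deposited values, taken as log2, ran from 2.49 to 14.1, with array medians between 6.73 and 6.84. Since each sample is a bulk of sorted cells, fewer cells that use a gene and less RNA per cell cannot be told apart in any difference below.

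In the developing nervous system the group B1 proteins Sox1, Sox2 and Sox3 keep neural progenitors undifferentiated, and the group C proteins Sox4 and Sox11 act as the cells become neurons. The group D proteins Sox5, Sox6 and Sox13 carry a coiled coil through which they pair, have no transactivation domain of their own, and modulate the action of other Sox proteins, for example in cartilage and in the timing of oligodendrocyte formation. The group E proteins Sox8 and Sox9 act with Sox10 in glia, neural crest and cartilage.

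Sox6 was lower and Sox5 and Sox2 were higher in medial than in lateral neurons, and the other 7 genes did not pass the test. Sox6 was 4.66-fold lower (95% interval 3.09 to 7.03), Sox5 was 1.96-fold higher (1.70 to 2.25) and Sox2 was 1.55-fold higher (1.29 to 1.87), each on 3 samples per group. The call of Sox2, unlike those of Sox5 and Sox6, was lost on removing any single sample (adjusted p from 0.0817 to 0.113) and with the replicate number as a block (adjusted p = 0.127). The test was limma's moderated test with Benjamini-Hochberg adjustment over all 23332 rows at a threshold of 0.05, under which 3.07% of all rows passed. Of the 10 Sox genes, 3 passed, 2 upward and 1 downward in the medial samples, where 1.13% and 1.94% of all rows did so. All 3 also differed by at least 1.5-fold, the fold that the series design names, as did 2.69% of all rows. The median log2 difference, medial minus lateral, was 0.01 for the 10 genes and 0.017 for all rows.

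The start regions of these 3 genes are shown because they carry the differences. Each is the RefSeq window (GRCm38.p6) from 250 bases before to 50 after a transcription start, 5′ to 3′ on the gene's strand, with capitals marking ACAAT and ACAAAG, short forms of the sequence that Sox HMG boxes recognise, searched on both strands. RefSeq's table gave 1 window for Sox2 (chr3:34649745-34650044, plus strand), 1 for Sox5 (chr6:143947057-143947356, minus strand) and 6 for Sox6, of which the first listed is printed (chr7:116038695-116038994, minus strand).
Sox2: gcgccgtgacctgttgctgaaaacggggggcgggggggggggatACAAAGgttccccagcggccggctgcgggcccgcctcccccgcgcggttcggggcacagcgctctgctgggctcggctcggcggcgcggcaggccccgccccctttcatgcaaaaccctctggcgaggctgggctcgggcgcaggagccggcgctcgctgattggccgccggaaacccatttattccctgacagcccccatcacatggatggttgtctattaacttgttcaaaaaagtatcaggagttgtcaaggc
Sox5: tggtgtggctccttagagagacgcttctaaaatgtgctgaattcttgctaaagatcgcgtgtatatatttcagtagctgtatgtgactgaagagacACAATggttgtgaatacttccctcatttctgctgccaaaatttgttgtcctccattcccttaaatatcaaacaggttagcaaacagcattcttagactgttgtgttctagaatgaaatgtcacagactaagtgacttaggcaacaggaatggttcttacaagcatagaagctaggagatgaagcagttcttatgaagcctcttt
Sox6: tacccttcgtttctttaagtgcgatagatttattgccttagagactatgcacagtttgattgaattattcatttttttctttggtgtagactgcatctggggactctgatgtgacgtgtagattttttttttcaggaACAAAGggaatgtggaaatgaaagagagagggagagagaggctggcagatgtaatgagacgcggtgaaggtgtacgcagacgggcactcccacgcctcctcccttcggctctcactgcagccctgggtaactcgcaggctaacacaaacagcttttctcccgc
The Sox2 and the printed Sox6 window each held 1 ACAAAG, and the Sox5 window held 1 ACAAT. Of all 32851 windows in the table, 18.7% held ACAAAG, 31.0% held ACAAT and 42.9% held either. The motifs share their first letters, and neither contains the other. All 6 windows of Sox6 held either motif. Windows were listed for 8 of the 10 genes, and those of Sox1, Sox4, Sox8, Sox11 and Sox13 held neither. G and C made up 66.3% of the Sox2 window, 39.7% of the Sox5 window and 47.0% of the printed Sox6 window, against a median of 52.7% over all windows. A match here is a run of letters, and the array values do not tell which start was used.

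Among the group D genes, Sox6 stood at 6.41, 6.14 and 6.66 (log2) in medial replicates 1, 2 and 3, against 9.09, 8.18 and 8.60 in lateral replicates 1, 2 and 3. Every lateral value lay above every medial value, with a gap wider than the range within either group. The log2 difference was −2.22 ± 0.25 (SE, n = 3 per group, limma adjusted p = 0.00717). The lateral samples also spread more than the medial ones, with SDs of 0.45 and 0.26.

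Sox5, the gene of the closest relative of the Sox6 protein, was measured at 7.63, 7.44 and 7.51 in medial replicates 1 to 3 and at 6.51, 6.54 and 6.62 in lateral replicates 1 to 3 (log2). The groups did not overlap, and the order was the opposite of that of Sox6. The log2 difference was 0.97 ± 0.08 (SE, limma adjusted p = 0.00265), and its SDs of 0.09 and 0.06 were small beside it.

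Sox13, the remaining member of group D, read 7.48, 7.49 and 7.47 in the medial samples and 7.36, 7.46 and 7.46 in the lateral samples (log2). The groups did not overlap but lay next to each other, and the log2 difference of 0.05 ± 0.07 (SE, limma adjusted p = 0.852) did not pass. Its 95% interval ran from −0.12 to 0.22.

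**Figure D1:**
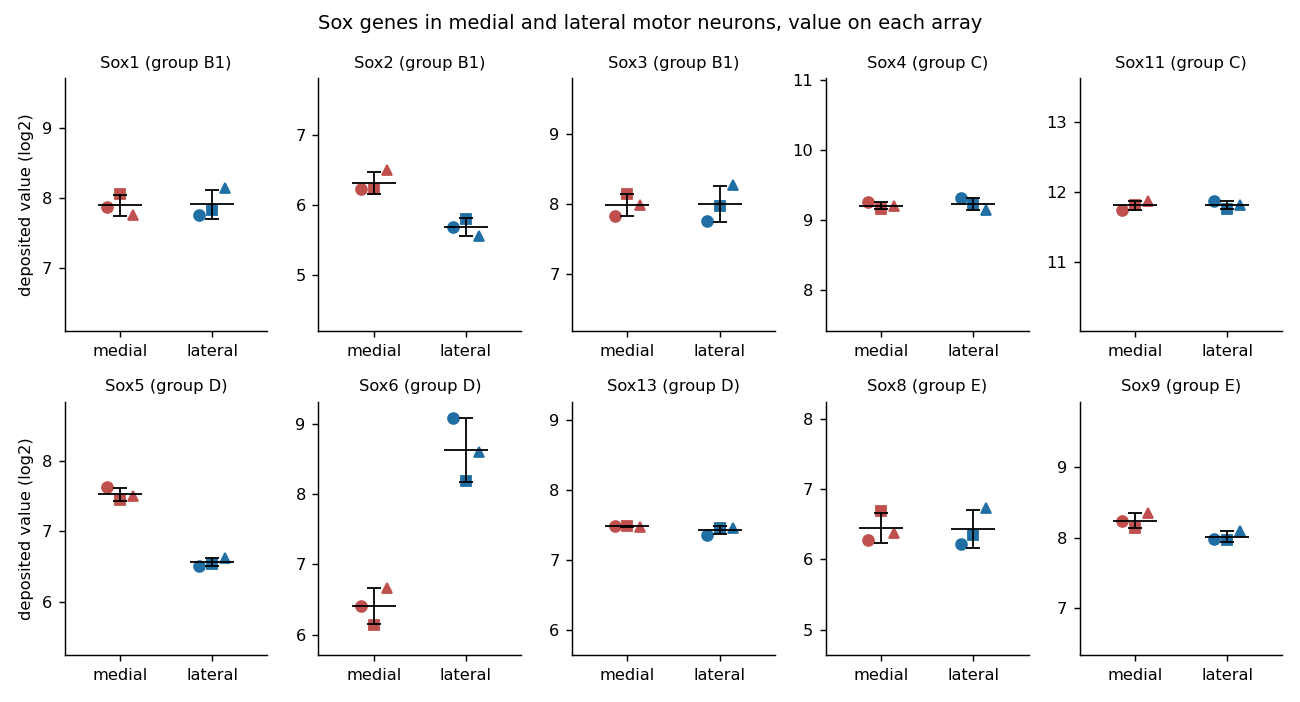
Deposited log2 value of each Sox gene on each array, in medial (red) and lateral (blue) motor neurons, where circles, squares and triangles are replicates 1, 2 and 3, long bars are means and whiskers are SDs (n = 3). Every panel spans the same range in log2 units around its gene's mean, and the 2 groups stand clearly apart for Sox6, Sox5 and Sox2.

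Of the group B1 genes, Sox2 stood at 6.22, 6.23 and 6.49 (log2) in the medial samples, against 5.69, 5.80 and 5.55 in the lateral ones. All medial values were above all lateral values. The log2 difference was 0.63 ± 0.11 (SE, limma adjusted p = 0.0376). On removing single samples, which ended this call each time, the difference lay between 0.54 and 0.69. The calls of Sox5 and Sox6 survived each of the 6 removals, with adjusted p no higher than 0.0214 for Sox5 and 0.0357 for Sox6.

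Sox1 read 7.87, 8.05 and 7.76 in the medial samples and 7.75, 7.83 and 8.14 in the lateral samples (log2), and Sox3 read 7.83, 8.14 and 7.99 against 7.76, 7.97 and 8.27. In both genes the groups overlapped and the highest of the 6 values was that of lateral replicate 3. The log2 differences were −0.01 ± 0.13 for Sox1 and −0.02 ± 0.15 for Sox3 (SE), with 95% intervals from −0.34 to 0.31 and from −0.38 to 0.34. Neither passed in limma (adjusted p = 0.983 for each), and neither interval reached the size of the difference measured for Sox2.

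The group C genes had differences near 0. Sox11 read 11.75, 11.82 and 11.87 in the medial samples and 11.88, 11.76 and 11.82 in the lateral samples (log2). Sox4 read 9.26, 9.16 and 9.20 against 9.32, 9.23 and 9.15. The groups overlapped in both genes, and all SDs lay between 0.05 and 0.09. The 95% intervals of the log2 difference, from −0.19 to 0.18 for Sox11 and from −0.22 to 0.16 for Sox4, did not reach a change of 1.5-fold in either direction.

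Of the group E genes, Sox9 read 8.24, 8.14 and 8.35 in the medial samples and 7.98, 7.96 and 8.10 in the lateral samples (log2). The groups did not overlap, but the log2 difference of 0.23 ± 0.09 (SE) did not pass in limma (adjusted p = 0.329, unadjusted p = 0.0382). Sox8 read 6.28, 6.69 and 6.38 against 6.22, 6.35 and 6.73, with overlapping groups and a log2 difference of 0.02 ± 0.17 (95% interval −0.39 to 0.43, adjusted p = 0.983). Counted together, 5 of the 10 genes, namely Sox2, Sox5, Sox6, Sox9 and Sox13, had groups whose values did not overlap, as did 19.3% of all rows.

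**Figure D2:**
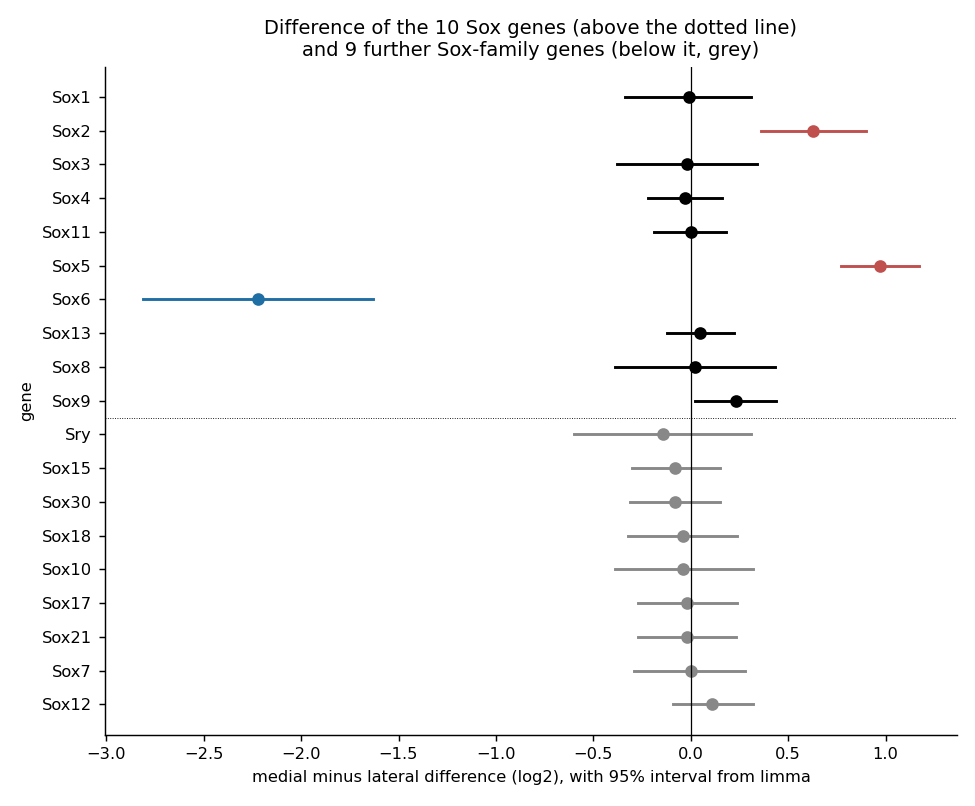
Medial minus lateral log2 difference of each gene (dot) with its 95% interval from limma (line), for the 10 Sox genes above the dotted line and 9 further genes of the family below it in grey. Red and blue mark the genes that passed as higher (Sox2 and Sox5) or lower (Sox6) in medial neurons, and the intervals of the others in black reach at most from −0.39 to 0.44.

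The table carries no detection calls, so low values can be background. As a gauge, 25 genes of other tissues (hormones, milk, sperm, liver, muscle and the like) had means over the 6 arrays from 4.23 to 7.01, with a median of 5.50 (log2). Both group means of Sox2 and Sox8 fell inside that range, as did the lateral mean of Sox5, 6.56, and the medial mean of Sox6, 6.40. The remaining 6 genes had both means above it. Folds of Sox5 and Sox6 can therefore understate the difference, since the dimmer group may hold background. For Sox2 both groups may hold background, so how far its fold reflects Sox2 RNA cannot be told from these values. Rows of different genes are not compared by level.

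**Figure D3:**
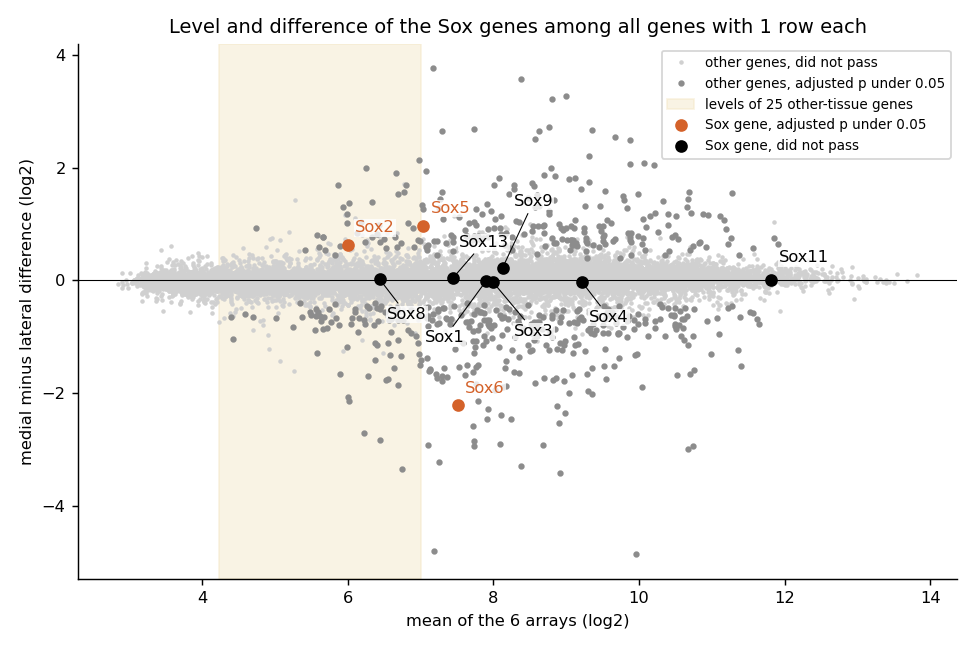
Mean of the 6 arrays (horizontal axis, log2) against the medial minus lateral difference (vertical axis, log2) for each gene, with the shaded band from 4.23 to 7.01 spanning the means of 25 other-tissue genes. Sox2 lies inside the band, and Sox5 at 7.04 and Sox6 at 7.51 lie just to its right.

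Of 10 further Sox-family genes, 9 had a row, and 0 of them passed in limma, with log2 differences from −0.14 to 0.11, a median of −0.04 and 0 at an unadjusted p under 0.05. Sox12, the third group C gene, differed by 0.11 ± 0.09, and Sox21, a group B2 gene that counteracts group B1 proteins, by −0.02 ± 0.11. Sox10, the group E gene of glia and crest, differed by −0.04 ± 0.15. The endothelial genes Sox7, Sox17 and Sox18 differed by 0.00, −0.02 and −0.04, and Sox15, Sox30 and the sex-determining gene Sry by −0.08, −0.08 and −0.14 (log2). Of the TCF and LEF genes, whose proteins carry a related HMG box, Lef1, Tcf7l1 and Tcf7l2 had rows and differed by 0.14, −0.01 and −0.03. None of these 3 passed, and 0 had an unadjusted p under 0.05. Their means lay inside the range of the other-tissue genes, as did those of Sox7, Sox10, Sox15, Sox17, Sox18 and Sox30. Such rows may hold background, so their small differences do not show unchanged RNA.

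Genes that work with the Sox proteins were read from lists chosen for each group. Of 7 POU and Pax genes, whose proteins bind DNA beside group B1 proteins, 2 passed as higher in the medial samples, 0 as lower and 5 did not pass, with a median log2 difference of 0.04. Pou3f4 read 9.89, 9.94 and 10.27 in the medial samples and 8.18, 8.42 and 8.03 in the lateral samples, a log2 difference of 1.82 ± 0.15 (SE, limma adjusted p = 0.00211). Pou3f1 differed by 1.14 ± 0.08 (adjusted p = 0.00126). Pou3f2, at 0.53 ± 0.16, had groups that did not overlap but did not pass (adjusted p = 0.193), and Pou3f3 differed by 0.04. Pax6, Pax3 and Pax7 differed by 0.02, −0.05 and −0.11. Their means of 4.36, 4.78 and 6.63 lay inside the range of the other-tissue genes, so the list median includes rows that may hold background. Of 12 proneural and Notch effector genes, which group B1 proteins counteract or act with, 1 passed as higher and 0 as lower, with a median of 0.16. It was Neurod1, a neuronal differentiation factor, at 2.09 ± 0.11 (adjusted p = 5.74e-04). Dll1 at 0.46, Dll3 at 0.38, Neurog2 at 0.35 and Hes6 at 0.23 were also higher, with groups that did not overlap and an unadjusted p under 0.05 in limma. They did not pass (adjusted p from 0.121 to 0.321). Only Hes1 and Hes5, at −0.11 each with overlapping groups, had differences below 0. Of 8 neuronal genes linked to group C, 1 passed, with a median of 0.04. It was the homeobox gene Prox1, which read 7.13, 6.60 and 7.06 in the medial samples and 5.88, 5.99 and 5.96 in the lateral ones, a log2 difference of 0.99 ± 0.15 (SE, adjusted p = 0.0219). Its group means, 6.93 and 5.94, both lay inside the range of the other-tissue genes. How far its fold reflects Prox1 RNA therefore cannot be told. Tead2 at 0.38 ± 0.11 and Elavl4 at 0.21 ± 0.07 were also higher in the medial samples, with groups that did not overlap. They did not pass (limma adjusted p = 0.201 and 0.293). Dcx, a microtubule-binding protein gene of young neurons, differed by −0.14 ± 0.07, also without overlap, and did not pass. Of 10 cartilage genes linked to groups D and E and 15 glial and crest genes linked to group E, 0 passed in limma, with medians of 0.00 and −0.02. The smallest adjusted p-values in those lists were 0.508 and 0.603. Median levels of 6.32 and 5.66 in the cartilage and the glial and crest list lay inside the range of the other-tissue genes. Many of these rows may therefore hold background, and their small differences do not show unchanged RNA.

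For the genes that passed, the 3 genes nearest in pattern were found by the Euclidean distance over the 6 arrays between values from which each gene's own mean was taken. Nearest to Sox6 were Cnih3, an AMPA receptor auxiliary subunit gene, at a distance of 0.407, the protocadherin gene Pcdh17 at 0.502 and Galntl6 at 0.571, with log2 differences of −2.22, −2.45 and −2.36. Nearest to Sox5 were the homeobox gene Irx3 at 0.145, Tmem150c at 0.162 and the zinc finger gene Bcl11a at 0.184, with log2 differences of 1.0, 0.93 and 0.97. Nearest to Sox2 were the growth factor receptor gene Fgfr1 at 0.0917, the Notch ligand gene Jag1 at 0.106 and Hecw2 at 0.17, with log2 differences of 0.65, 0.66 and 0.72. These distances describe the 6 arrays and were not tested.

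Because Sox genes also mark other cells of the cord, lists of cell type markers were set beside the results. Of 15 neural progenitor markers, 0 passed as higher and 1 as lower in the medial samples, and 9 had means within or below the range of the other-tissue genes. The mean of the list was 6.76 to 6.79 in the medial samples and 6.69 to 6.84 in the lateral samples (log2). The gene that passed was Nkx6-1, which motor neurons also use, at −0.75 ± 0.11 (SE, limma adjusted p = 0.021). Prom1, a progenitor surface protein gene, was the other list member with an unadjusted p under 0.05 (0.0069), and its difference of 0.34 ± 0.09 did not pass (adjusted p = 0.133), with medial values of 6.89, 6.75 and 6.88 that all lay above the lateral values of 6.60, 6.50 and 6.41. The radial glial gene Fabp7 read 8.69, 8.74 and 8.72 in the medial samples and 7.87, 9.03 and 7.66 in the lateral samples, a log2 difference of 0.53 ± 0.34 that did not pass (adjusted p = 0.603). Of 6 oligodendrocyte precursor markers and 5 Schwann and crest markers 0 passed, and the list means were 6.34 to 6.51 and 6.91 to 7.05 in the medial samples and 6.32 to 6.70 and 6.95 to 7.12 in the lateral samples. Of the markers of other cells, 2 of 11 mesenchyme and cartilage genes passed (Dcn higher at 1.31, Postn lower at −0.64 in the medial samples), as did 1 of 10 endothelial genes (Cldn5, higher at 0.45), 2 of 5 floor plate genes (Shh at −1.03 and Spon1 at −1.30, both lower) and 1 of 18 spinal interneuron genes (Slc17a6, higher at 1.02). The median of the interneuron list was −0.07, and its members Gad2 at −0.37 and Pax8 at −0.35 had groups that did not overlap but did not pass (adjusted p = 0.144 and 0.164). Both group means of Prom1, Dcn, Postn, Cldn5, Slc17a6, Gad2 and Pax8 lay inside the range of the other-tissue genes. Their values may hold background, so how far these differences reflect RNA of the genes cannot be told. Among 4 red blood cell, 6 myeloid and 3 sensory neuron genes 0 passed in limma and 0 had an unadjusted p under 0.05. The arrays have no value of 0, so no marker can be called absent, and the part of such cells in the Sox differences was not tested.

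The 9 motor neuron markers each had a mean above the highest of the other-tissue genes, and 2 of them passed upward and 3 downward in the medial samples. All 5 medial column markers, Lhx3, Lhx4, Mecom, Epha3 and Fgfr1, were higher in the medial samples, and of 6 lateral column markers 4 (Foxp1, Aldh1a2, Lhx1 and Etv4) were lower there and 2 did not pass. These marker lists were drawn up with earlier results of these data known, so the counts are no independent check of the columns. Mnx1 itself, whose promoter drives the sorted fluorescence, was higher in the medial samples by 1.42 ± 0.09 on the log2 scale (SE, limma adjusted p = 0.00102), and the part of the sort in the Sox differences was not tested.

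**Figure D4:**
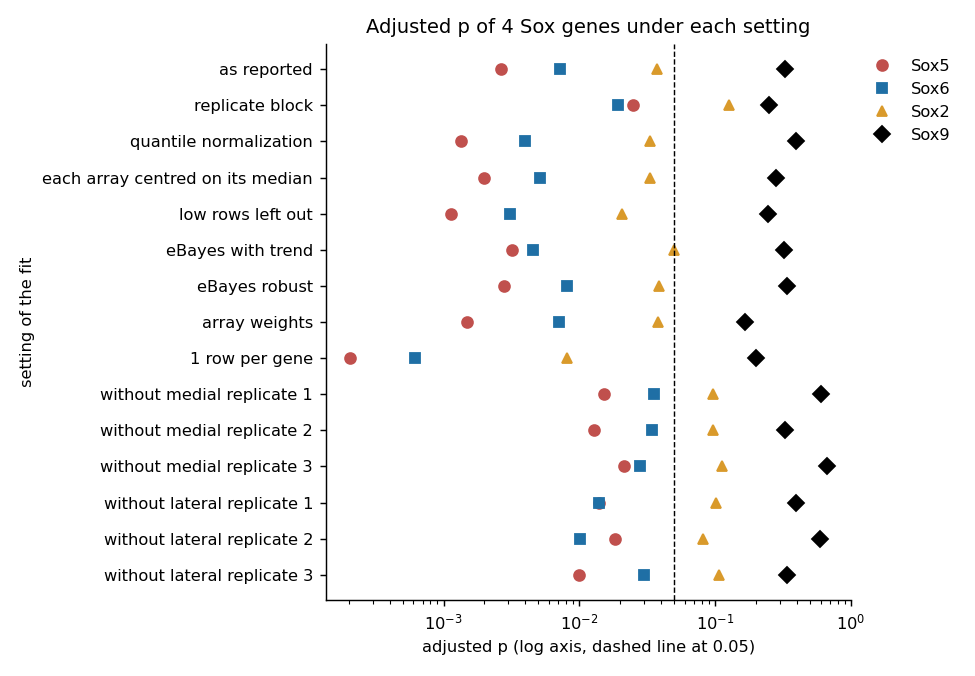
Adjusted p (log axis) of Sox5, Sox6, Sox2 and Sox9 under the fit as reported and 14 other settings, with a dashed line at 0.05. Sox5 and Sox6 stay left of the line in every setting drawn, Sox2 crosses it with the replicate block and in each fit on 5 samples, and Sox9 lies right of it throughout.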

How the data were processed

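Sorted medial and lateral motor neurons were measured on 6 arrays, 3 per group. The values are those the authors deposited, 23332 rows by 6 arrays, taken as log2 from their range. The summarization, background correction and normalization, and any centring between arrays, are not given in the sources used here. Per the submitters' processing notes the build was mm9. RefSeq sequences and names came from GRCm38.p6. Groups and replicate numbers came from the sample titles.

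Medial was set against lateral in a two-sided limma fit (version 3.58.1, R 4.3.3) by lmFit with eBayes, without blocking, and p-values were adjusted by Benjamini-Hochberg across the whole table. The fit was tested on simulated data. Of the rows, 14996 had 1 gene symbol, 1019 several and 7317 were not listed. For 14941 rows with 1 symbol, the RefSeq symbol of the same Entrez identifier was used, whether or not it differed. A gene was represented by its row with the highest mean. The 22 gene lists held 206 genes. The text names every Sox gene and every member of the further Sox and TCF lists with a row. Each member of the other Sox-linked lists that passed is also named. Some genes were chosen after their values were seen (Dcx, Tead2, Elavl4, Prom1, Fabp7, the uncalled proneural, Notch, POU and Pax genes, and the markers). Members and lists were chosen with earlier results of these data known. The number of arrays limits the precision. Alternatives were a replicate block, quantile normalization, median centring, a filter on low rows, eBayes with trend or robust, array weights, 1 row per gene, a fold of 1.5, and each sample left out.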

Additional observations from a re-analysis of the deposited data

How the results depend on the processing

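Sox5 and Sox6 kept their direction and their call in all 8 alternatives with every sample, with log2 differences from 0.97 to 0.98 and from −2.24 to −1.98, and in all 6 fits with a sample left out. Sox2 passed in 7 of the 8 (adjusted p from 0.00817). The exception was the fit with the replicate number as a block, where its difference was 0.63 and its adjusted p 0.127. The block changed no other call among the Sox genes. Same-numbered samples had deviations from their group means that correlated at 0.35, 0.07 and 0.02, and since not every pair was over 0.1 the samples were not taken as paired. As a hint from the data, 4 of 6 samples did correlate best with their own number. However, medial replicate 2 and lateral replicate 3, of unlike number, correlated at 0.30. Medial replicate 3 matched its own number only at 0.02, against 0.00 and −0.02 for lateral replicates 1 and 2. The sample descriptions give each same-numbered pair a shared number whose meaning is not explained, so pairing cannot be told from these sources. The 3 called Sox genes became 2 when any one sample was left out, and the count of all rows, 717, fell to between 326 and 538. Leaving out a sample gave log2 differences from 0.54 to 0.69 for Sox2. It turned the sign of differences near 0, none of which passed, over −0.10 to 0.10 for Sox1, −0.14 to 0.12 for Sox3, −0.07 to 0.02 for Sox4, −0.10 to 0.17 for Sox8 and −0.04 to 0.03 for Sox11. Sox11, at 0.00, also changed sign with each array centred on its median (0.01) and with array weights (0.03). Fits with fewer samples have less power by construction, and the cause of the other changes was not tested. No Sox gene had a further row to try. Depth has no counterpart in these values, and closeness to background limits Sox2 and Sox8 above all.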

Other observations

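Genes and transcripts next to the 3 Sox genes that passed were read after those results were known. Sox2ot, a long noncoding transcript that contains Sox2 in an intron, read 4.18, 4.30 and 4.38 in the medial samples and 4.25, 4.10 and 4.12 in the lateral samples (log2). Its difference of 0.13 ± 0.09 did not pass (SE, limma adjusted p = 0.631). The mean of this row, 4.22, lay below the lowest other-tissue mean of 4.23. It may hold only background, so it cannot tell whether Sox2ot follows Sox2. Atp11b and Dnajc19, the protein-coding neighbours of Sox2 in RefSeq, differed by −0.02 ± 0.12 and −0.11 ± 0.21. Bcat1, beside Sox5, differed by 0.22 ± 0.09 with groups that did not overlap and an adjusted p of 0.361. The protein-coding gene on the other side of Sox5 had no row with its symbol alone. Insc, beside Sox6, differed by 0.20 ± 0.08 (adjusted p = 0.372), in the direction opposite to Sox6, and 1110004F10Rik on its other side by 0.14 ± 0.15. None of these neighbours passed.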
